A study of Mus musculus with 16 samples.

Results

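The transcription factors that place and maintain the joints of the skull roof were followed in cells of the mouse coronal suture, the joint where the frontal bone meets the parietal bone. The set listed 9 genes, Msx1, Msx2, Alx4, Zic1, Six2, Prrx1, Foxc1, Gli3 and Erf, and each was read from its brightest probe set that carries only 1 gene symbol. Under that rule 8 of the 9 were found among 22180 named genes, each with 1 such probe set. Msx1 shares its probe sets with a second symbol and is not analysed here. RNA came from C57BL6 mice, either heterozygous for Twist1 (Twist 1+/-) or wild type, and all cells were grown in DMEM with serum. Medium held the thyroid hormone thyroxine (log10 of its mol per liter, -6) or was the control medium without it. The 16 arrays covered 8 groups, namely Twist1+/- cells with thyroxine, Twist1+/- cells in control medium, wild-type cells with thyroxine and wild-type cells in control medium, each after 3 and after 7 days. Each group had 1 array of female and 1 of male cells, so the titles show 4 cultures, 1 for each genotype and sex. The labels also speak of 8 independent samples, and whether these were more than 4 cultures is not known. Arrays of 1 genotype and sex are treated here as 1 culture. Cells came from the pooled animals of 2 litters, and no age of the mice is given in the labels. Values are log2 array signals, on which a difference of 1 is a doubling.

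Sutures are strips of mesenchyme in which cells divide and supply the bone fronts on either side, and they last as long as those cells do not all become bone. The factors described here act early in that tissue. Msx2, Alx4 and Prrx1 are homeodomain proteins of the skull mesenchyme, Foxc1 is a forkhead protein needed for growth of the skull bones, and Zic1 is a zinc finger protein. Six2 is a homeodomain protein best known from kidney progenitors, Gli3 transmits and represses Hedgehog signals, and Erf is a repressor of the ETS family that ERK kinase removes from the nucleus. In humans, altered copies of MSX2, ALX4, ZIC1, GLI3 and ERF are associated with skull defects or early suture fusion, and loss of a copy of TWIST1, a helix-loop-helix factor, fuses the coronal suture.

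The cultures carried markers of skull mesenchyme, and also markers of macrophages. Of 17 mesenchymal and osteoblast markers 15 had a probe set and 12 passed the filter on dim genes, while Ibsp, Bglap and Sp7, which mark mature osteoblasts and their precursors, fell below it. Of 15 macrophage markers all 15 passed. The mean of the 12 mesenchymal markers was 8.91 to 9.19 on the 4 wild-type male arrays, against 9.97 to 10.32 on the other 12 arrays, and the ranges did not overlap. In the wild-type male culture the mean of the macrophage markers was already 9.67 and 9.70 at 3 days, while it was 7.88 to 8.69 in the other 3 cultures at that time. Of the 8 listed markers of meninges 6 passed, of 7 endothelial markers 4, of 7 muscle markers 5, of 6 epithelial markers 2 and of 6 neural markers 3. Over all named genes 13453 of 22180 passed. The mean of the markers that passed was 6.22 to 7.34 for meninges. For the endothelial, muscle, epithelial and neural lists it was 4.24 to 5.67, with the filter at 3.905. Twist1 itself ran from 6.51 to 7.34 in female Twist1+/- cells and from 6.94 to 7.55 in male Twist1+/- cells, against 6.97 to 7.70 in wild-type female and 6.07 to 6.54 in wild-type male cells. The labels do not say which part of the gene is deleted, so this probe set cannot check the genotype. Since the samples are bulk cultures, fewer cells of a type and less RNA per cell cannot be told apart.

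Of day, genotype and medium, only day had members past the test. Msx2, a homeodomain repressor that acts downstream of BMP signals, and Zic1 were lower at 7 days than at 3 days, by about the same amount. The other 6 members did not pass the test. In limma's fit across 13453 genes, 18.5% of genes passed an adjusted p of 0.05 between 7 and 3 days, with 9.84% of genes higher and 8.69% lower, beside which 2 of 8 members were lower and 0 higher. The median difference of the 8 members was -0.17, against -0.02 over all tested genes. Both media of a culture and day shared a plate, and the fit for day, genotype and sex had no block for plate. Its p-values and SE may therefore be too small.

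Msx2 read 6.88, 6.86, 6.21 and 6.19 on the Twist1+/- arrays at 7 days, against 7.30, 7.29, 6.80 and 6.46 at 3 days, in the order female thyroxine, female control, male thyroxine, male control. In wild-type cells it read 6.04, 6.12, 6.97 and 6.40 at 7 days, against 6.82, 6.81, 7.36 and 7.15 at 3 days, in the same order. Each culture and medium was lower at 7 days, but the levels of the cultures lay so far apart that the 7-day and 3-day arrays overlapped within each genotype. Msx2 averaged 6.46 ± 0.38 at 7 days and 7.00 ± 0.32 at 3 days (SD, n = 8 arrays each), and the 8 differences ran from -0.78 to -0.27. Msx2 fell by 0.54 ± 0.14 (SE) on the log2 scale, with a 95% interval of -0.85 to -0.23, a fold of 0.688 and a limma adjusted p of 0.0204. The call was lost when any of 5 single arrays was left out: Twist1+/- female with thyroxine at 3 days (adjusted p = 0.0611), wild-type male with thyroxine at 3 days (0.0573), Twist1+/- male thyroxine and control at 7 days (0.0764 and 0.0669) and wild-type female control at 7 days (0.0522). Without those arrays in turn the difference stayed between -0.53 and -0.49.

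Zic1 read 6.71, 7.00, 6.44 and 6.27 on the Twist1+/- arrays at 7 days, against 7.45, 7.53, 6.86 and 6.75 at 3 days, in the order given for Msx2. In wild-type cells it read 6.75, 6.92, 6.60 and 6.34 at 7 days, against 7.28, 7.26, 6.87 and 6.89 at 3 days. All 8 comparisons within a culture and medium were lower at 7 days, by 0.27 to 0.74 on the log2 scale, and the ranges of the days overlapped, with female arrays above male arrays at each day in both genotypes. Zic1 averaged 6.63 ± 0.27 at 7 days and 7.11 ± 0.30 at 3 days (SD, n = 8 arrays each). It fell by 0.48 ± 0.08 (SE), with an interval of -0.65 to -0.32, a fold of 0.716 and a limma adjusted p of 0.00109. Leaving out any 1 array kept this call. On the 8 arrays of thyroxine medium alone and the 8 of control medium alone, neither gene passed in limma (adjusted p = 0.104 and 0.0573 for Zic1, and 0.300 and 0.207 for Msx2). Without the 7-day Twist1+/- arrays the day comparison was that of wild-type cells alone. Neither gene passed there in limma (adjusted p = 0.189 for Zic1 and 0.255 for Msx2). The differences in these settings ran from -0.65 to -0.42.

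The plot of the 8 factors on all 16 arrays shows these shifts beside the differences between cultures.

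**Figure D1:**
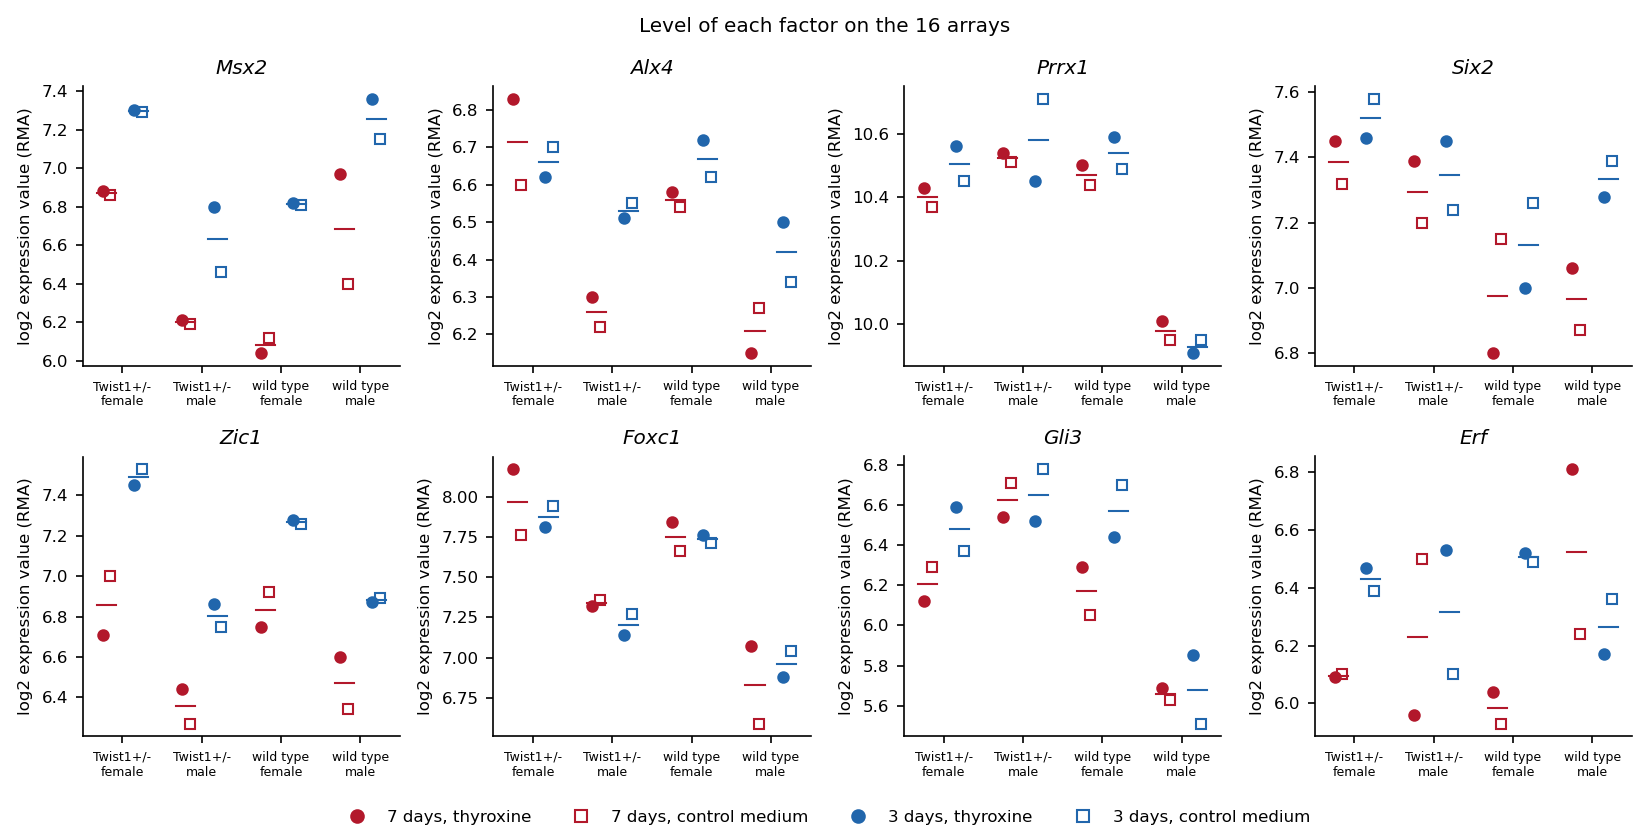
Log2 signal (vertical axis) of Msx2, Alx4, Zic1, Six2, Prrx1, Foxc1, Gli3 and Erf on each of the 16 arrays, arranged by culture on the horizontal axis, with colour for day, filled circles for thyroxine, open squares for control medium and a line for the mean of each culture and day. Msx2 and Zic1 sit lower at 7 days than at 3 days in each culture, and Prrx1 and Gli3 are low on the 4 wild-type male arrays.

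Because Msx2 and Zic1 moved together with day, their promoters are shown, with that of Zic5, a relative of Zic1 described below. The windows are from RefSeq on GRCm38.p6 and run from 250 bases before to 50 bases after the gene start, 5′ to 3′ on the gene's strand. Capitals mark E-boxes (CANNTG, the kind of site that Twist1 dimers bind) and the homeodomain core TAATTA. The Msx2 window lies at chr13:53472731-53473030 on the minus strand, the Zic1 window at chr9:91365719-91366018 on the minus strand and the Zic5 window at chr14:122465609-122465908 on the minus strand.
Msx2: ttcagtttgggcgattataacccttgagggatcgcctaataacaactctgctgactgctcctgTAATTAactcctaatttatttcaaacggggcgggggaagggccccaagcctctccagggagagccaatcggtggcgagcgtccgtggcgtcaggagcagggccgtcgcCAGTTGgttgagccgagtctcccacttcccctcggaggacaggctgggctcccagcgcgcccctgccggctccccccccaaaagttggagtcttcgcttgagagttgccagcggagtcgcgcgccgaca
Zic1: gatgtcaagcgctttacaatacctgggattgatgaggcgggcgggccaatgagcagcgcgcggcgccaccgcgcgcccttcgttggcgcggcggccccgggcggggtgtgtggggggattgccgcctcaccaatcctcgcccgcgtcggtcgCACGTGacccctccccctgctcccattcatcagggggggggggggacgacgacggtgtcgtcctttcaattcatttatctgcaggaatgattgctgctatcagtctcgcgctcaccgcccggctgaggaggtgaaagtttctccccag
Zic5: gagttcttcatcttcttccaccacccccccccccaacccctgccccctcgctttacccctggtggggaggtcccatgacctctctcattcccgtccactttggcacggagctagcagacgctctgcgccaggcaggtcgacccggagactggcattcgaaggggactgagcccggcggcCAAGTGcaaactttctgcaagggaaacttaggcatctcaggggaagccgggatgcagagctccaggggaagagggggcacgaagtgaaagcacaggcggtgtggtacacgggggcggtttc
Each of the 3 windows held 1 E-box, with its first base at -79 in Msx2, -98 in Zic1 and -71 in Zic5, counted from the gene start. The Msx2 window also held 1 TAATTA at -187. Promoters of 8 of the 9 listed genes, Msx1 included and Alx4 not, were in the table, and 4 of these 8 held an E-box (Msx1, Msx2, Zic1 and Gli3), against 72.3% of 32851 mouse promoter windows. TAATTA stood in 2 of 8 (Msx2 and Prrx1), against 5.29% of windows. The thyroid hormone receptor motif AGGTCA (16.3% of windows) and the Gli core ACCACCC (4.61%) were in 0 of 8, and the ETS core GGAA was in 7 of 8, against 96% of windows. The Zic5 window, outside that count, held 1 AGGTCA and 1 ACCACCC. Both strands were searched, the motifs in capitals do not overlap, and a match is a run of letters rather than a site known to be bound.

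In Twist1+/- cells alone, Zic1 fell by 0.54 ± 0.11 (limma adjusted p = 0.00549), the only member among 8 to pass in that comparison, where 14.6% of all genes passed and 5.4% were lower. In wild-type cells alone 0 of 8 members passed in limma, where 0.111% of all genes did and 2212 had an unadjusted p under 0.05. Zic1 differed there by -0.42 ± 0.11 (adjusted p = 0.0944) and Msx2 by -0.65 ± 0.20 (adjusted p = 0.137), against -0.43 ± 0.20 (adjusted p = 0.184) for Msx2 in Twist1+/- cells. The test of the difference between genotypes in the day effect passed for 0 members and 0 genes in limma, with 1174 genes at an unadjusted p under 0.05. It was 0.22 ± 0.29 for Msx2 and -0.12 ± 0.15 for Zic1, with intervals of -0.40 to 0.85 and -0.45 to 0.21. With culture as a fixed block, the replicate block, both genes passed in each genotype, Msx2 with adjusted p = 0.0152 in Twist1+/- and 0.0115 in wild-type cells and Zic1 with 0.00267 and 0.0422.

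Macrophage markers moved with day as well. Of 15 such markers 15 were higher at 7 days in limma, with a median difference of 1.12 and a range of 0.89 to 1.54. C1qa and C1qc, subunits of complement C1q, rose by 1.43 and 1.38, Ptprc, the leukocyte antigen CD45, by 1.12 and Lyz2, a lysozyme, by 0.89. The list's mean level was 9.64 to 10.06 on the 7-day arrays, against 7.88 to 9.70 on the 3-day arrays. Cd68, a lysosomal protein of macrophages, averaged 11.42 ± 0.13 at 7 days and 9.88 ± 0.92 at 3 days (SD, n = 8 each). In the wild-type male culture the list's mean was 9.76 and 10.06 at 7 days, against 9.67 and 9.70 at 3 days, and Msx2 was lower there at 7 days by 0.39 with thyroxine and 0.75 in control medium, and Zic1 by 0.27 and 0.55. With each array centred on its mesenchymal markers, an alternative chosen after the data were seen, Msx2 fell by 0.49 (limma adjusted p = 0.000783) and Zic1 by 0.43 (0.00149). The mesenchymal markers averaged 10.00, 10.20, 10.25 and 9.04 at 7 days, against 10.06, 10.24, 10.31 and 9.11 at 3 days, in the Twist1+/- female, Twist1+/- male, wild-type female and wild-type male cultures, and that centring does not adjust for macrophage markers. The part of the macrophage markers in these results was not tested. Of the 12 mesenchymal markers 2 were lower at 7 days, Vim by 0.23 (adjusted p = 0.0363) and Alpl by 0.40 (0.0436), and 0 were higher. The share of all tested genes was 8.69% lower and 9.84% higher. In limma, markers of other cells that passed between days were Mgp of meninges at 0.43, Cdh1 of epithelium at 0.37 and Gfap of glia at -0.31, and 0 of 4 endothelial and 0 of 5 muscle markers passed.

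**Figure D2:**
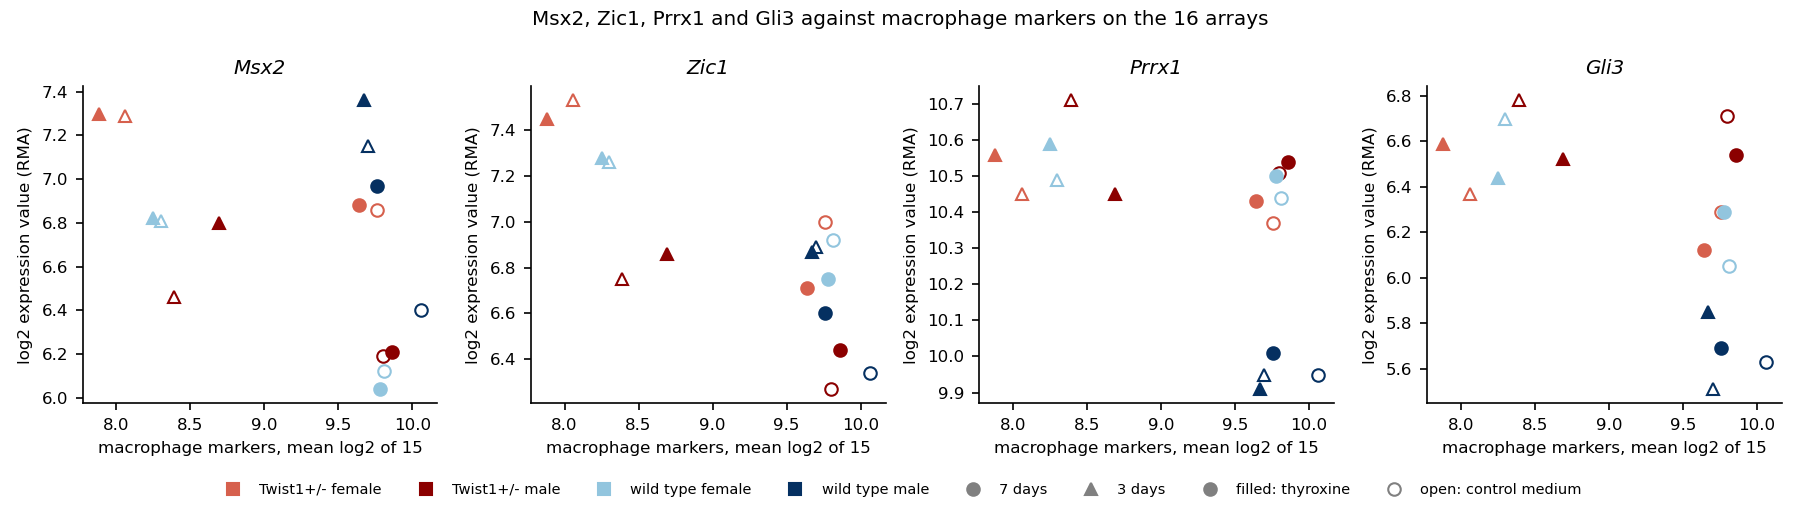
Log2 signal of Msx2, Zic1, Prrx1 and Gli3 (vertical axes) against the mean log2 level of 15 macrophage markers (horizontal axis) on the 16 arrays, with colour for culture, circles for 7 days and triangles for 3 days, filled for thyroxine and open for control medium. The wild-type male arrays lie at 9.67 to 10.06 on the horizontal axis at both days.

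Six2, Alx4, Gli3, Erf, Prrx1 and Foxc1 did not pass between days. Six2 differed by -0.18 ± 0.08 (limma adjusted p = 0.130) and was lower at 7 days in 8 of 8 comparisons within a culture and medium, at 7.15 ± 0.24 against 7.33 ± 0.18 at 3 days. Alx4 differed by -0.13 ± 0.07 (adjusted p = 0.187) and was lower in 7 of 8. Gli3 differed by -0.18 ± 0.14 (0.412) and Erf by -0.17 ± 0.12 (0.359), each lower in 6 of 8. The intervals for Prrx1, from -0.23 to 0.14, and for Foxc1, from -0.12 to 0.18, leave out shifts of the size seen for Msx2 and Zic1. Without the wild-type male culture, which leaves a single array in each wild-type group, Erf differed by -0.36 and Gli3 by -0.28. Culture could not be a random block there, and more members and more genes in each genotype were called, as given below.

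Relatives of the members were also lower at 7 days in several cases. Of 16 listed relatives 12 were tested, 5 of which were lower and 1 higher, with a median of -0.19. Over all tested genes 8.69% were lower and 9.84% higher. In limma Zic5 fell by 0.38 (adjusted p = 0.0134), Six4 by 0.37 (0.0136), Alx1 by 0.29 (0.0187) and Prrx2 by 0.26 (0.0222), with SE from 0.07 to 0.09. Zic2, named after its value was seen, as was Etv3, fell by 0.28 (0.0370). Etv3, an ETS repressor close to Erf, rose by 0.36 (0.0282). Prrx2 differed by -0.09 in thyroxine medium alone and by -0.43 in control medium alone.

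The Zic genes, which lie in head-to-head pairs in the genome (Zic1 with Zic4, Zic2 with Zic5), can be read side by side. Zic5 was 5.54, 5.41, 5.09 and 5.10 in Twist1+/- cells at 7 days, against 5.65, 5.44, 5.94 and 5.45 at 3 days, in the order given for Msx2. In wild-type cells it was 5.09, 5.03, 5.13 and 5.21 at 7 days, against 5.66, 5.61, 5.55 and 5.30 at 3 days, so its 2 ranges met only in Twist1+/- cells. Zic5 and Zic2 were lower at 7 days in 8 of 8 comparisons, as Zic1 was. Zic4 was lower in 5 of 8 and differed by -0.20 ± 0.08 (limma adjusted p = 0.106), at 4.20 ± 0.25 against 4.40 ± 0.16, close to the filter at 3.905. Leaving out single arrays kept the calls of Zic5 and Six4, while those of Zic2, Alx1, Prrx2 and Etv3 were lost without any 1 of 11, 6, 8 and 9 of the 16 arrays.

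**Figure D3:**
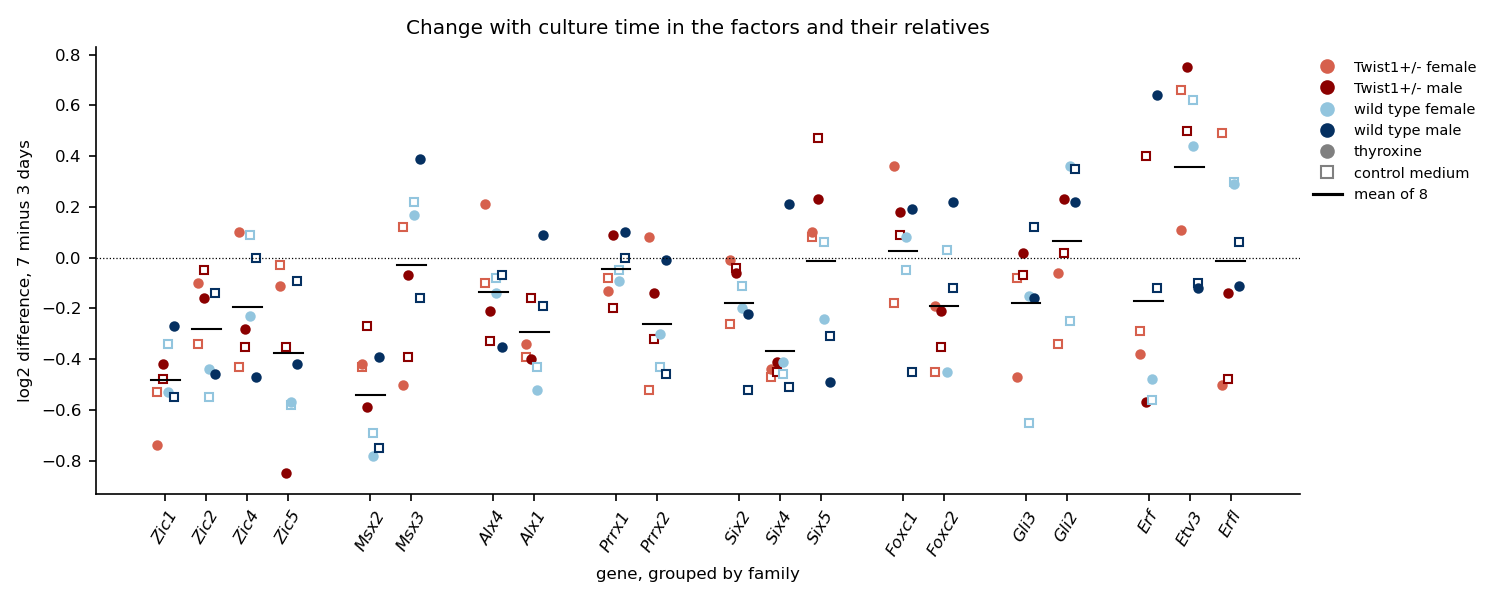
Difference in log2 signal, 7 minus 3 days (vertical axis), for the 8 members and their 12 tested relatives grouped by family (horizontal axis). Each point is a comparison within 1 culture (colour) and medium (filled circle for thyroxine, open square for control), and each line is the mean of 8. All 8 points of Msx2, Zic1, Six2, Zic2 and Zic5 lie below 0.

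The pathways around Gli3 and Erf were described by lists of Hedgehog genes and of ERK and ETS genes. The counts below stand beside 8.69% of all tested genes lower and 9.84% higher at 7 days. Of 19 Hedgehog genes 15 were tested and 1 was lower at 7 days in limma, Disp1, which releases Hedgehog ligands, at -0.24 ± 0.08 (adjusted p = 0.0471). Disp1 lost that call without any 1 of 13 of the 16 arrays. Shh, Dhh and Gli1 were below the filter. Of 17 ERK and ETS genes 15 were tested and 5 were higher at 7 days, with a median over the list of 0.12. Etv1, an ETS activator, rose by 0.78 ± 0.09 (adjusted p = 0.000343), Dusp6, a phosphatase of ERK, by 0.64 ± 0.08 (0.000469), Ets2 by 0.79 ± 0.15 (0.00311) and Spred1, an inhibitor of the pathway, by 0.37 ± 0.07 (0.00418). Etv5 was the fifth, at 0.25 ± 0.07 (0.0340), and lost its call without any 1 of 11 arrays. These genes moved with the macrophage markers above, whose part in their change was not tested. Of 24 other transcription factors of the head 19 were tested and 2 were lower, Snai2 at -0.19 ± 0.06 (0.0334) and Snai1 at -0.29 ± 0.09 (0.0371), both factors of mesenchymal transition. Their calls were lost without any 1 of 14 and 13 arrays. Twist1 did not pass, at -0.24 ± 0.19 (0.443).

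In Twist1+/- cells alone the same lists held further calls by day in limma. Twist2, the closest relative of Twist1, fell by 0.66 ± 0.16 (adjusted p = 0.0171), Snai1 by 0.51 ± 0.12 (0.0182) and Six4 by 0.44 ± 0.13 (0.0351), while Etv3 rose by 0.50 ± 0.14 (0.0340). These calls were lost without any 1 of 5, 4, 8 and 7 of the 16 arrays, in that order. Snai1 read 6.68 and 7.07 with thyroxine at 7 days, against 6.80 and 7.00 at 3 days, and 5.86 and 6.01 in control medium at 7 days, against 6.93 and 6.91 at 3 days (female, then male), so its difference lay mainly in control medium. Its difference was -0.03 in thyroxine medium alone and -0.98 in control medium alone, and that of Twist2 was -0.32 and -1.0. Twist2 read 3.36 to 4.90 in Twist1+/- cells, around the filter at 3.905. Over both genotypes it was lower at 7 days in 4 and higher in 4 of 8 comparisons within a culture and medium. Etv1 rose by 1.01 ± 0.13 (0.000878), Dusp6 by 0.83 ± 0.12 (0.00125), Ets2 by 1.07 ± 0.21 (0.00542) and Spred1 by 0.47 ± 0.10 (0.00984). In wild-type cells alone 0 genes of these 4 lists passed in limma, and the difference between genotypes passed for 0 genes, as given above.

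The comparison of Twist1+/- with wild-type cells asks whether loss of a Twist1 copy shifts the factors that share its territory. In limma 0 of 8 members passed, where 0% of all genes did, 619 genes had an unadjusted p under 0.05 and the smallest adjusted p was 0.150. The comparison rests on 2 cultures against 2, and p-values here measure the spread between arrays rather than between animals. The median of the 8 members was 0.17, against 0.02 over all tested genes.

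Foxc1 was higher in the Twist1+/- array in 8 of 8 matched comparisons of the same sex, day and medium, and Six2 in 7 of 8. Foxc1 averaged 7.60 ± 0.37 in Twist1+/- and 7.32 ± 0.48 in wild-type cells (SD, n = 8 arrays each), a difference of 0.28 ± 0.10 (limma adjusted p = 0.937). Six2 was 7.20 at the lowest, 7.42 at the median and 7.58 at the highest in Twist1+/- cells, against 6.80, 7.11 and 7.39 in wild-type cells. It differed by 0.29 ± 0.11, with an interval of 0.05 to 0.52 (limma adjusted p = 0.937). The ranges of both genes overlapped between genotypes.

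Prrx1, a marker of skull and limb mesenchyme, and Gli3 had higher means in Twist1+/- cells, where 1 wild-type culture stood apart. Prrx1 averaged 10.45 ± 0.08 in female and 10.55 ± 0.11 in male Twist1+/- cells, against 10.50 ± 0.06 in wild-type female and 9.96 ± 0.04 in wild-type male cells (SD, n = 4 arrays each). Gli3 averaged 6.34 ± 0.20 and 6.64 ± 0.13 in the female and male Twist1+/- cultures, against 6.37 ± 0.27 and 5.67 ± 0.14 in wild-type female and male cells. For both genes the 4 wild-type male arrays lay below all 12 others. The genotype difference was 0.27 ± 0.12 for Prrx1 and 0.47 ± 0.19 for Gli3 (limma adjusted p = 0.937 each). Without the wild-type male culture it was -0.05 for Prrx1 (adjusted p = 0.855) and -0.03 for Gli3 (0.950). The mesenchymal markers were low in the same culture, as given above: Col1a1, the main collagen of bone, was 11.75 to 11.83 there and 12.36 to 12.93 in the other cultures. Their part in the levels of Prrx1 and Gli3 was not tested.

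Msx2 had opposite differences between the genotypes in the 2 sexes. It averaged 7.08 ± 0.25 in Twist1+/- female cells, against 6.45 ± 0.43 in wild-type female cells, and 6.42 ± 0.28 in Twist1+/- male cells, against 6.97 ± 0.41 in wild-type male cells (SD, n = 4 arrays each). In female cells it was higher in the Twist1+/- array in 4 of 4 matched comparisons, by 0.48 to 0.84, and the 2 ranges did not overlap. In male cells it was lower in 4 of 4, by 0.21 to 0.76, with overlapping ranges. Over all arrays the differences came to 0.04 ± 0.20 (limma adjusted p = 0.988), with an interval of -0.40 to 0.48. Without the wild-type male culture Msx2 passed at 0.63 (adjusted p = 0.00366) and Six2 at 0.40 (0.0363), but wild type was then 1 culture, from which genotype and culture cannot be told apart.

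Alx4 differed between genotypes by 0.08 ± 0.09, Zic1 by 0.01 ± 0.11 and Erf by -0.05 ± 0.16, with intervals of -0.13 to 0.28, -0.22 to 0.25 and -0.41 to 0.31. Alx4 averaged 6.54 ± 0.20 in Twist1+/- and 6.46 ± 0.19 in wild-type cells. Zic1 averaged 6.88 ± 0.44 and 6.86 ± 0.31 in the same order, and Erf 6.27 ± 0.23 and 6.32 ± 0.29. In limma 0 genes of the relatives, Hedgehog, ERK and head factor lists passed between genotypes. With each array centred on its mesenchymal markers, the genotype differences of Alx4, Foxc1, Msx2, Prrx1, Six2 and Zic1 turned negative, from -0.43 to -0.16, with SE from 0.59 to 0.77.

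**Figure D4:**
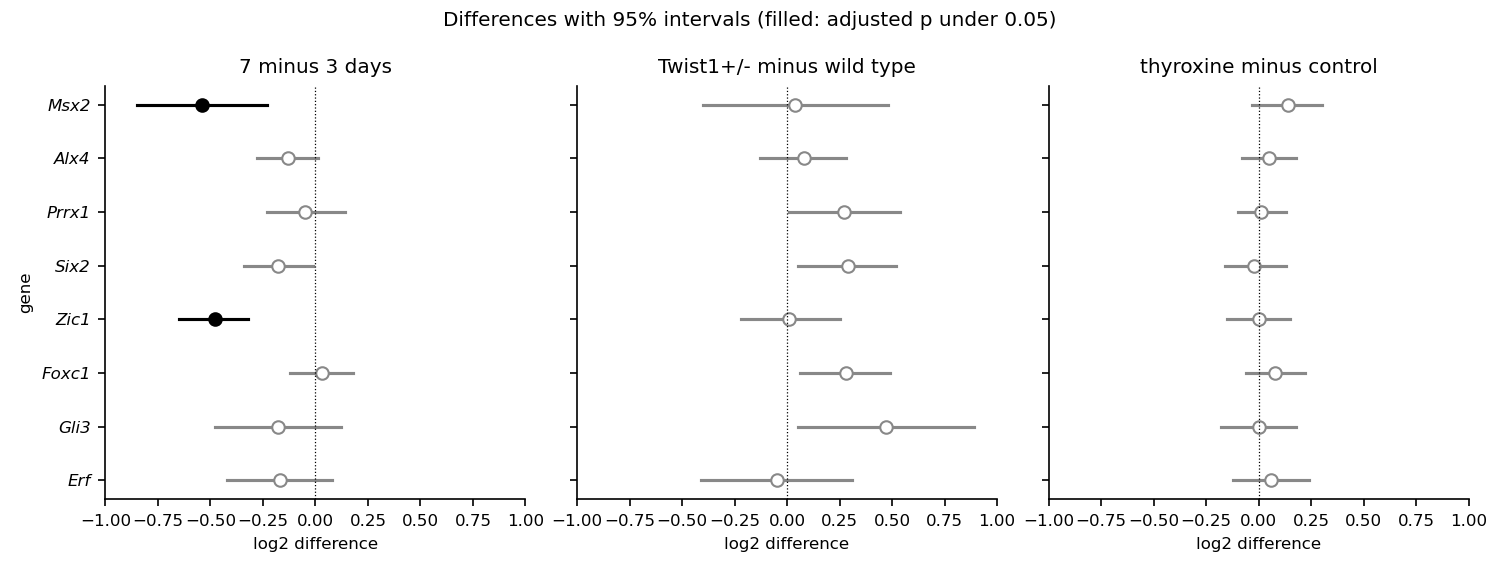
Fitted log2 differences (horizontal axis) with 95% intervals for the 8 members in 3 panels: 7 minus 3 days, Twist1+/- minus wild type, and thyroxine minus control medium. Filled points, Msx2 and Zic1 for day, passed limma's adjusted p of 0.05, and open points did not.

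The arrays of female and male cells were compared after their values had been seen, because 3 of the factors differed along that line. Foxc1 was 7.66 at the lowest, 7.79 at the median and 8.17 at the highest on the 8 female arrays, against 6.59, 7.11 and 7.36 on the 8 male arrays, and the ranges did not overlap. In matched comparisons the female array was higher by 0.40 to 1.07, in 4 of 4 for each genotype. The difference was 0.75 ± 0.10, with an interval of 0.53 to 0.96, a fold of 1.68 and a limma adjusted p of 0.0130. It was 1 of 8 members called, where 0.0669% of all genes were called and 0.052% were higher in female cells. Leaving out the Twist1+/- female or the Twist1+/- male control array at 3 days ended the call (adjusted p = 0.0681 and 0.0679) with the difference at 0.75, as did thyroxine medium alone (0.708), control medium alone (0.577) and the filter at the 60th percentile (0.0628).

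Zic1 was higher in the female array in 8 of 8 matched comparisons, by 0.48 ± 0.11 (limma adjusted p = 0.268), and Alx4 in 8 of 8, by 0.30 ± 0.09 (0.439), and neither passed. The wild-type male culture was also left out, so that male cells were 1 culture. Msx2 was then higher in female cells by 0.67, Foxc1 by 0.65 and Zic1 by 0.59. Culture could not be a random block there, and many more genes passed than over all arrays, as given below. Over all arrays Msx2 differed by 0.07 ± 0.20 (adjusted p = 0.938). Female and male cells were 2 cultures each over all arrays, so sex and culture cannot be told apart. Beside these values, all 15 macrophage markers were lower in female arrays on average, by 0.23 to 0.91, and 11 of 12 mesenchymal markers were higher, though 0 of either list passed in limma. The mean of the mesenchymal markers was higher in female arrays only in wild-type cells, at 10.18 to 10.32 against 8.91 to 9.19 in male arrays. In Twist1+/- cells it was lower in female arrays, at 9.97 to 10.06 against 10.15 to 10.32. All 6 meninges markers that passed the filter were higher in female arrays on average, by 0.18 to 0.81, and 0 passed in limma. Their mean was 6.99 to 7.30 in female and 6.76 to 6.97 in male Twist1+/- arrays. In wild-type cells it was 7.07 to 7.34 and 6.22 to 6.33. Of muscle, endothelial, epithelial and neural markers 5 of 5, 3 of 4, 1 of 2 and 1 of 3 were higher. The part of these markers in the sex differences was not tested. With each array centred on its mesenchymal markers Foxc1 differed by 0.24 (adjusted p = 0.782).

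Thyroxine moved none of the 8 factors past the limma threshold in any comparison. Each of these averaged 3 and 7 days, and a response at 7 days alone was not tested. Over all 8 pairs of a thyroxine and a control array, 0 of 8 members passed, where 0.0966% of genes did and 825 were under an unadjusted p of 0.05. The median of the members was 0.03, against -0.02 over all tested genes. Msx2 had the largest difference, and averaged 6.80 ± 0.47 with thyroxine and 6.66 ± 0.43 in control medium (SD, n = 8 arrays each). It was higher with thyroxine in 7 of 8 pairs, by 0.14 ± 0.08, with an interval of -0.03 to 0.30 (limma adjusted p = 0.832). The pairs ran from -0.08 to 0.57, and the 2 largest were the Twist1+/- male pair at 3 days, 6.80 with thyroxine and 6.46 in control medium, and the wild-type male pair at 7 days, 6.97 and 6.40.

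Of the other 7 members, Foxc1 differed by 0.08 ± 0.06 and the rest lay between -0.02 and 0.06. All their intervals stayed within -0.18 and 0.24, so a response averaged over both days of the size of the day difference in Msx2 lies outside them. The intervals do not cover a response at 1 day only. Foxc1 pairs ran from -0.16 to 0.05 at 3 days and from -0.04 to 0.48 at 7 days. Erf had the widest spread, with pairs from -0.54 to 0.57. Erf read 5.96 with thyroxine and 6.50 in control medium in Twist1+/- male cells at 7 days, and 6.81 and 6.24 in wild-type male cells at 7 days, so the 2 male pairs went opposite ways.

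Split by genotype, 0 of 8 members passed in limma in Twist1+/- pairs, where 0.201% of genes did and 1397 had an unadjusted p under 0.05, and 0 of 8 in wild-type pairs, where 0.0149% did and 752 had. The difference between genotypes in the thyroxine effect passed for 0 of 8 members, where 0.0595% of genes did and 1282 were under an unadjusted p of 0.05. It was largest for Six2, at 0.23 ± 0.14 (limma adjusted p = 0.602), since Six2 was higher with thyroxine in 3 of 4 Twist1+/- pairs and lower in 3 of 4 wild-type pairs. Six2 read 7.46, 7.45, 7.45 and 7.39 with thyroxine in the Twist1+/- pairs, against 7.58, 7.32, 7.24 and 7.20 in control medium, in the order female 3 and 7 days, male 3 and 7 days. In the wild-type pairs it read 7.00, 6.80, 7.28 and 7.06 with thyroxine, against 7.26, 7.15, 7.39 and 6.87 in control medium. No gene of the relatives, Hedgehog, ERK or head factor lists passed in any thyroxine comparison, each of which averaged 3 and 7 days. At 7 days in Twist1+/- cells Snai1 read 6.68 and 7.07 with thyroxine, against 5.86 and 6.01 in control medium (female, then male). In wild-type cells at 7 days it read 6.78 and 6.35, against 6.90 and 6.31. Thyroxine at 7 days alone was not tested.

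The levels by culture complete the account of the factors. Foxc1 went down from Twist1+/- female at 7.92 ± 0.18 and wild-type female at 7.74 ± 0.08 to Twist1+/- male at 7.27 ± 0.10 and wild-type male at 6.90 ± 0.22 (SD, n = 4 arrays each). Only the step between the sexes separated neighbours by more than their ranges, together with that between the 2 male cultures, whose ranges of 7.14 to 7.36 and 6.59 to 7.07 did not meet. Zic1 was also higher in both female than in both male cultures, with Twist1+/- female at 7.17 ± 0.39, wild-type female at 7.05 ± 0.26, wild-type male at 6.68 ± 0.26 and Twist1+/- male at 6.58 ± 0.27, and all neighbours overlapped. Alx4 had the order of Foxc1 and stood at 6.69 ± 0.10, 6.62 ± 0.08, 6.40 ± 0.16 and 6.32 ± 0.15 in Twist1+/- female, wild-type female, Twist1+/- male and wild-type male cells, and neighbours overlapped. Six2 ran from 7.45 ± 0.11 in Twist1+/- female over 7.32 ± 0.12 in Twist1+/- male and 7.15 ± 0.23 in wild-type male to 7.05 ± 0.20 in wild-type female cells, with overlapping neighbours. Erf lay between 6.24 ± 0.30 and 6.40 ± 0.29 in the 4 cultures, with no separated pair.

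Genes whose pattern over the 16 arrays was most like that of each factor are given as a description. Arrays share cultures, days and cell makeup, so the correlations (Pearson's r among 12429 candidate genes) carry no test. Prrx1 was closest to the collagen genes Col1a1 (0.976) and Col1a2 (0.970) and to Sema3c (0.972), a semaphorin. Gli3 was closest to Cacna2d1 (0.956), Ccdc186 (0.953) and P4hb (0.947). Foxc1 was closest to Arsi (0.929), Sema3d (0.906) and the ligand gene Bmp4 (0.884), and Zic1 to Akap12 (0.892), the Wnt receptor gene Fzd6 (0.871) and the receptor gene Fgfr2 (0.856). Msx2 was closest to Nbl1, an antagonist of BMP-type ligands (0.923), Slc1a6 (0.922) and Kctd10 (0.921). Alx4 was closest to Igfbp2 (0.862), Faah (0.841) and Fbxl6 (0.826), Six2 to Abcb10 (0.839), Smndc1 (0.819) and Ephx2 (0.818), and Erf to Slc25a4 (0.892), Tbl3 (0.860) and Fh1 (0.850). Among the members, Prrx1 and Gli3 had the highest correlation at 0.91, followed by Alx4 with Foxc1 at 0.77 and Alx4 with Zic1 at 0.70.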

How the data were processed

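RNA of cultured coronal suture cells was measured on 16 Affymetrix arrays. Per the submitters' processing notes, the authors used Affymetrix Expression Console and RMA, and the deposited values are log2 signals, 1 for each probe set. RMA gives all arrays 1 distribution, so a shift of all genes could not be seen, and near background it compresses differences. Tool versions, genome build and any pooling of the 3 wells are not given in the sources used. Values ran from 0.57 to 14.05 and array medians from 3.73 to 3.86, and the number of arrays limits the precision.

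Of 41345 probe sets 23521 had 1 gene symbol, 1814 several and 16010 none, and 23328 matched by Entrez identifier, with 0 symbols changed. The brightest probe set stood for each of 22180 genes, and the 13453 whose mean reached 3.905 (40th percentile) entered limma 3.58.1 (R 4.3.3, with statmod 1.5.0) (two-sided tests, intensity trend, Benjamini-Hochberg at 0.05 over all tested genes). For thyroxine, the pair of arrays of a culture and day was a fixed block. The labels give this pairing, since both media of a culture and day shared a plate. For day, genotype and sex the fit had 8 group means and sex, with culture as a random block (correlation 0.202). Arrays that shared a plate had no block of their own in that fit, so its p-values and SE may be too small. Residual and prior degrees of freedom were 4 and 9.30 in the pair fit, and 7 and 5.11 in the other. With 1 culture per genotype and sex, p-values do not cover the spread between animals, and the spread between arrays may be technical in part. Both fits were also run on simulated data, where each added effect was the same in all cultures. That run does not cover a culture that stands apart, and its outcome is not reported here.

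The members and lists were chosen with earlier results of these data known. All members were named, with up to 4 genes per list and comparison with the smallest adjusted p among those past the threshold, and the 3 genes most correlated with each member. Some listed genes, Runx2 among them, are not analysed here. The comparison of sexes was added after values were seen. Alternatives changed the filter, probe set choice, centring, variance trend, array weights, blocks and arrays used.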

Additional observations from a re-analysis of the deposited data

Results flagged for a closer look

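The difference of Prrx1 between thyroxine and control medium in the Twist1+/- male pair at 3 days was -0.26, with 10.45 with thyroxine and 10.71 in control medium, far from the other 7 pairs, the nearest of which was -0.04. This was 1 of 48 groups of values searched for a far sample, and chance gives about 1 in 20. The same pair had the largest differences in Cd68, at 0.59, and in Col1a1, at -0.26, and their part in the value was not tested.

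Msx2 and Prrx1 differed between the genotypes in opposite directions in the 2 sexes. Twist1+/- minus wild type averaged 0.64 for Msx2 in female cells and -0.55 in male cells, with 4 of 4 matched comparisons on each side. For Prrx1 it averaged -0.05 in female cells and 0.60 in male cells, again with 4 of 4 on each side. The difference between the sexes was not tested for either gene, and each side compares 1 culture with 1 culture.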

How the results depend on the processing

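The number of members past the limma threshold stayed at 0 under each alternative run for thyroxine and for the genotype difference in the day effect. With Twist1+/- and wild type as the comparison, it was 0 except without the wild-type male culture, where it was 2 of 8 and 310 genes passed. For 7 against 3 days over all arrays 2 members passed, against 1 without the filter on dim genes, 1 with no replicate block, 4 without the wild-type male culture, and 0 without the 7-day Twist1+/- arrays, in control medium only and in thyroxine medium only. Over single arrays left out it was 1 to 2. Across 29 alternatives Msx2 lay between -0.65 and -0.43 and passed in 19, with adjusted p from 0.000183 to 0.300, and Zic1 lay between -0.53 and -0.42 and passed in 26, with adjusted p from 0.000433 to 0.189. In wild-type cells the count of 0 members became 1 without the wild-type male culture, 2 with the replicate block (culture as a fixed block) and 1 with mesenchymal centring, and 0 to 2 over single arrays left out. In Twist1+/- cells the count of 1 member became 2 without the wild-type male culture, 2 with the replicate block and 0 in either medium alone, and stayed 1 over single arrays left out. For sex the count of 1 became 0 with the filter at the 60th percentile, 0 in control medium only, 0 in thyroxine medium only, 0 with mesenchymal centring, 3 without the wild-type male culture and 2 with no replicate block, and 0 to 1 over single arrays left out. Foxc1 passed for sex in 22 of 28 alternatives. Control medium only, thyroxine medium only and the 7-day Twist1+/- arrays left out use fewer arrays. With those 7-day arrays left out, day over all arrays was the comparison in wild-type cells alone, so it is not a check of both genotypes. The other causes were not tested.

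Counts over all genes moved as well. For thyroxine in Twist1+/- pairs 27 genes became 47 with the mean of a gene's probe sets, 45 with mesenchymal centring, 3 with the pair as a random replicate block, and 0 with no variance trend, without the 7-day Twist1+/- arrays or with no replicate block. In wild-type pairs 2 became 4 with array weights, 18 with mesenchymal centring and 0 with no filter, median centring, no variance trend, either set of arrays left out and either change of the block. Over all pairs 13 became 30 with mesenchymal centring, 1 without the wild-type male culture, 1 with the pair as a random block, and 0 with no variance trend, without the 7-day Twist1+/- arrays and with no replicate block. The genotype difference in the thyroxine effect went to 5 with the mean of probe sets, 34 with mesenchymal centring, and 0 with no variance trend, either set of arrays left out and either change of the block, against 8. With single pairs left out these 4 counts ran from 0 to 232, 0 to 9, 0 to 29 and 0 to 202. For day in wild-type cells 15 genes became 8 with no filter, 57 with the 60th percentile, 1623 without the wild-type male culture, 2 without the 7-day Twist1+/- arrays, 8 with no replicate block, 513 with culture as a fixed block, 678 with mesenchymal centring and 0 in either medium alone. In Twist1+/- cells 1969 became 3017 without the wild-type male culture, 315 in control medium only and 0 in thyroxine medium only. Over all arrays 2493 became 512 in control medium only and 0 in thyroxine medium only. Without the 7-day Twist1+/- arrays it was 2, the count for wild-type cells alone, since only these had both days. Single arrays left out gave 4 to 531, 941 to 2181 and 1666 to 2891. The genotype difference in the day effect gave 0 genes, against 8 in control medium only and 21 with mesenchymal centring, and 0 to 2 over single arrays. For sex 9 became 15 with no filter, 224 without the wild-type male culture, 37 with no replicate block, 2 in either medium alone, and 0 with the 60th percentile and with mesenchymal centring, and 3 to 10 over single arrays.

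Aside from single arrays or pairs left out, 865 of 944 member values under alternatives kept direction and side of the threshold and 52 turned in sign. Of the turns, 20 were of uncalled values that moved by less than 1 SE. The other 32 are given next, with 1 of another named gene, Snai1 by day, at 0.01 in thyroxine medium only. For thyroxine in Twist1+/- pairs, Alx4 became -0.06, Erf 0.25 and Foxc1 -0.13 without the 7-day arrays, and Erf 0.34 in the genotype difference. Without the wild-type male culture Msx2 became -0.04 in wild-type pairs and 0.13 in the genotype difference. For day, in thyroxine medium only, Erf became 0.08 and Foxc1 0.13 in wild-type cells, and in control medium only Erf became 0.05 and Foxc1 -0.04 in Twist1+/- cells. Over all arrays Foxc1 became -0.15 in control medium only and -0.06 without the 7-day Twist1+/- arrays, where only wild-type cells were compared. In the genotype difference in the day effect Alx4 became -0.14 and Erf 0.39 in control medium only, and Erf 0.31 without the wild-type male culture. For genotype, mesenchymal centring gave Alx4 -0.37, Foxc1 -0.17, Msx2 -0.41, Prrx1 -0.17, Six2 -0.16 and Zic1 -0.43, and the wild-type male culture left out gave Gli3 -0.03 and Prrx1 -0.05. For sex, mesenchymal centring gave Alx4 -0.21, Gli3 -0.30, Msx2 -0.43, Prrx1 -0.28, Six2 -0.49 and Zic1 -0.02, the wild-type male culture left out gave Gli3 -0.30 and Prrx1 -0.10, and thyroxine medium only gave Six2 -0.12. With single pairs or arrays left out, signs turned in 57 of 1024 member values, 47 of them uncalled and moved by less than 1 SE, in 28 of 80 member comparisons. The other 10 lie in the ranges -0.14 to 0.12 (Erf), -0.08 to 0.14 (Foxc1), -0.21 to 0.03 (Gli3), -0.11 to 0.08 (Prrx1) and -0.14 to 0.09 (Zic1) for thyroxine in Twist1+/- pairs, -0.06 to 0.25 (Gli3) and -0.08 to 0.13 (Zic1) in wild-type pairs, -0.24 to 0.08 (Msx2) for their difference, and -0.33 to 0.07 (Erf) and -0.44 to 0.02 (Gli3) for day in wild-type cells. Mesenchymal centring, thyroxine medium only and all alternatives for sex were chosen after seeing the data. Without the wild-type male culture, culture could not be a random block.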
